A study of Mus musculus with 22 samples.

Results

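The genes described here were 40 protein-coding genes on mouse chromosome 7, all with a start site within 6 Mb of that of Apoe, the gene for the lipid carrier apolipoprotein E. They were chosen by name and position out of 35596 genes with summed reads. The choice was made with earlier results of these data known, so a comparison of listed with unlisted genes is a description. Their RNA was measured in 22 bulk libraries of retinal microglia, the resident macrophages of neural tissue, from mice of 12 weeks. All mice, controls included, had received apoptotic neurons by injection into the vitreous of the eye, and RNA was read 24 hours after it by SMART-Seq2, which copies whole transcripts from few cells. The gate took CD11b+ Fcrls+ Ly6c- cells, and the Alexa488 label parted those with engulfed material (phagocytic) from those without it. The 4 groups were wild-type C57BL/6 phagocytic cells (n = 5 libraries), wild-type C57BL/6 non-phagocytic cells (n = 5), Apoe -/- phagocytic cells of the strain labelled Apoe KO (n = 6) and Apoe -/- non-phagocytic cells of that strain (n = 6). Each library pooled 5 to 6 retinas of 1 sex and genotype, and 100 to 500 phagocytic cells were collected per sample. The genotype label names no cell type or promoter that would limit the deletion. The labels do not say how the Apoe KO line was made, nor whether the wild-type mice were its littermates.

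The listed genes share a stretch of chromosome and not a pathway. Genes close to a targeted gene tend to be inherited together with it, so a genotype comparison can set a stretch of chromosome side by side and not only a single gene. Whether the DNA of this stretch differed between these mice beyond Apoe was not tested. The stretch around Apoe is dense in genes. It holds receptors that macrophages use to sense complement and urokinase, members of the NF-kB family that drive inflammatory transcription, the nucleotide excision repair genes Ercc1 and Ercc2, and housekeeping genes of splicing, mitochondrial import and vesicle traffic. Tomm40, which encodes the import channel of the outer mitochondrial membrane, is the direct neighbour of Apoe.

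Apoe itself was read first as a check of the genotype labels. It lies at chr7:19696109-19699188 (mm10) on the minus strand. Apoe stood between 1320 and 5140 CPM (reads scaled to a common library depth) in wild-type phagocytic libraries and between 869 and 1600 CPM in wild-type non-phagocytic ones. In Apoe -/- libraries it stood between 8.91 and 34.9 CPM in phagocytic and between 7.02 and 17.6 CPM in non-phagocytic cells, so every library matched its label. Depth ran from 1131045 to 3643499 estimated reads and 16547 to 21776 genes per library, and 9.14% to 51.7% of reads fell on 12 predicted genes made of satellite-like repeats. All 8 microglia markers were read in every group, with summed levels between 4700 and 18100 CPM. Summed monocyte markers (6 of 6 read) were 973 to 2980 CPM in wild-type phagocytic libraries and 298 to 1130 CPM in Apoe -/- phagocytic ones, and summed rod markers (6 of 6 read) were 953 to 4340 CPM and 1440 to 7000 CPM in the same groups. No library stood so close to another of its group that the pair could be 1 library read again. Pairs across groups were not compared.

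Of the 40 listed genes, 12 start between 2.67 and 3.46 Mb before Apoe, 22 lie within 0.70 Mb on either side of it, and 6 start between 4.67 and 4.89 Mb after it. Too few reads fell on 3 of them for a test, namely Dmpk (a muscle kinase), Cadm4 (an adhesion molecule) and Ppp1r13l (an inhibitor of p53 and NF-kB). These 3 averaged 1.24, 0.369 and 1.13 TPM (a level per transcript length, scaled to a common total), and Dmpk and Cadm4 had no read in 10 and 12 of the 22 libraries. On the same scale, the mean level of the 37 tested genes over all libraries ran from 1.29 TPM for Eml2 to 125 TPM for C5ar1, with Ap2s1 at 122 and Tomm40 at 62.6 TPM. The listed genes were thus nearly all read in these libraries, which also held RNA of other cell types, and most at a low to middle level.

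The first question was whether these neighbours differed between genotypes. No listed gene passed an adjusted p of 0.05 in either sort (edgeR's quasi-likelihood test, Benjamini-Hochberg over 12415 genes), where 0.0322% of all genes passed in phagocytic and 0.0161% in non-phagocytic cells. In phagocytic cells, 11 of 37 listed genes (29.7%) had an unadjusted p below 0.05, against 6.62% of all genes and 10 of 75 (13.3%) other genes within 6 Mb. Of these 11, 10 had the lower level in Apoe -/- cells (27%, against 4.19% of all genes) and only Pvr had the higher (2.7%, against 2.43%). In non-phagocytic cells, 8 of 37 (21.6%) had an unadjusted p below 0.05, against 3.8% of all genes and 10 of 75 (13.3%) other genes of the stretch. Of these 8, 6 were lower (16.2%, against 2.02% of all genes) and 2, Pvr and Trappc6a, were higher in Apoe -/- cells (5.41%, against 1.78%). C5ar2, Ercc2, Smg9 and Pvr were in both sets, with the same direction in both (4 of 37, or 10.8%, against 0.693% of all genes). The counts rested in part on single libraries. The phagocytic count of 11 was 7 without Apoe -/- phagocytic replicate 2. The non-phagocytic count of 8 was 3 without wild-type replicate 5, and 5 without wild-type replicate 2, Apoe -/- replicate 2 or Apoe -/- replicate 5. Without both of those Apoe -/- libraries, in which about 1 read in 2 was satellite-like, it was 4. In libraries with reads of Y-linked genes alone, the counts were 5 and 4.

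Directions over the whole list were less uniform. In phagocytic cells 26 of the 37 genes had a log2 fold change below 0, against 50.5% of all genes, and the median was -0.30, against -0.00 over all genes. Without Apoe -/- phagocytic replicate 2 the median was -0.19. In non-phagocytic cells 21 of 37 did, against 50.3%, with a median of -0.08 against -0.00. The median size of the difference, regardless of sign, was 0.34 and 0.35 in the 2 sorts, against 0.27 and 0.23 over all genes. The sign was the same in both sorts for 22 of the 37 genes (59.5%), a share near the 60.8% over all genes. Library by library, the median of the listed genes against the wild-type mean of the same sort lay between -0.02 and 0.10 in wild-type phagocytic libraries. It lay between -0.41 and -0.17 in 5 Apoe -/- phagocytic libraries and at -0.02 in the remaining one, replicate 1. In Apoe -/- non-phagocytic libraries it ran from -0.42 to 0.00.

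**Figure D1:**
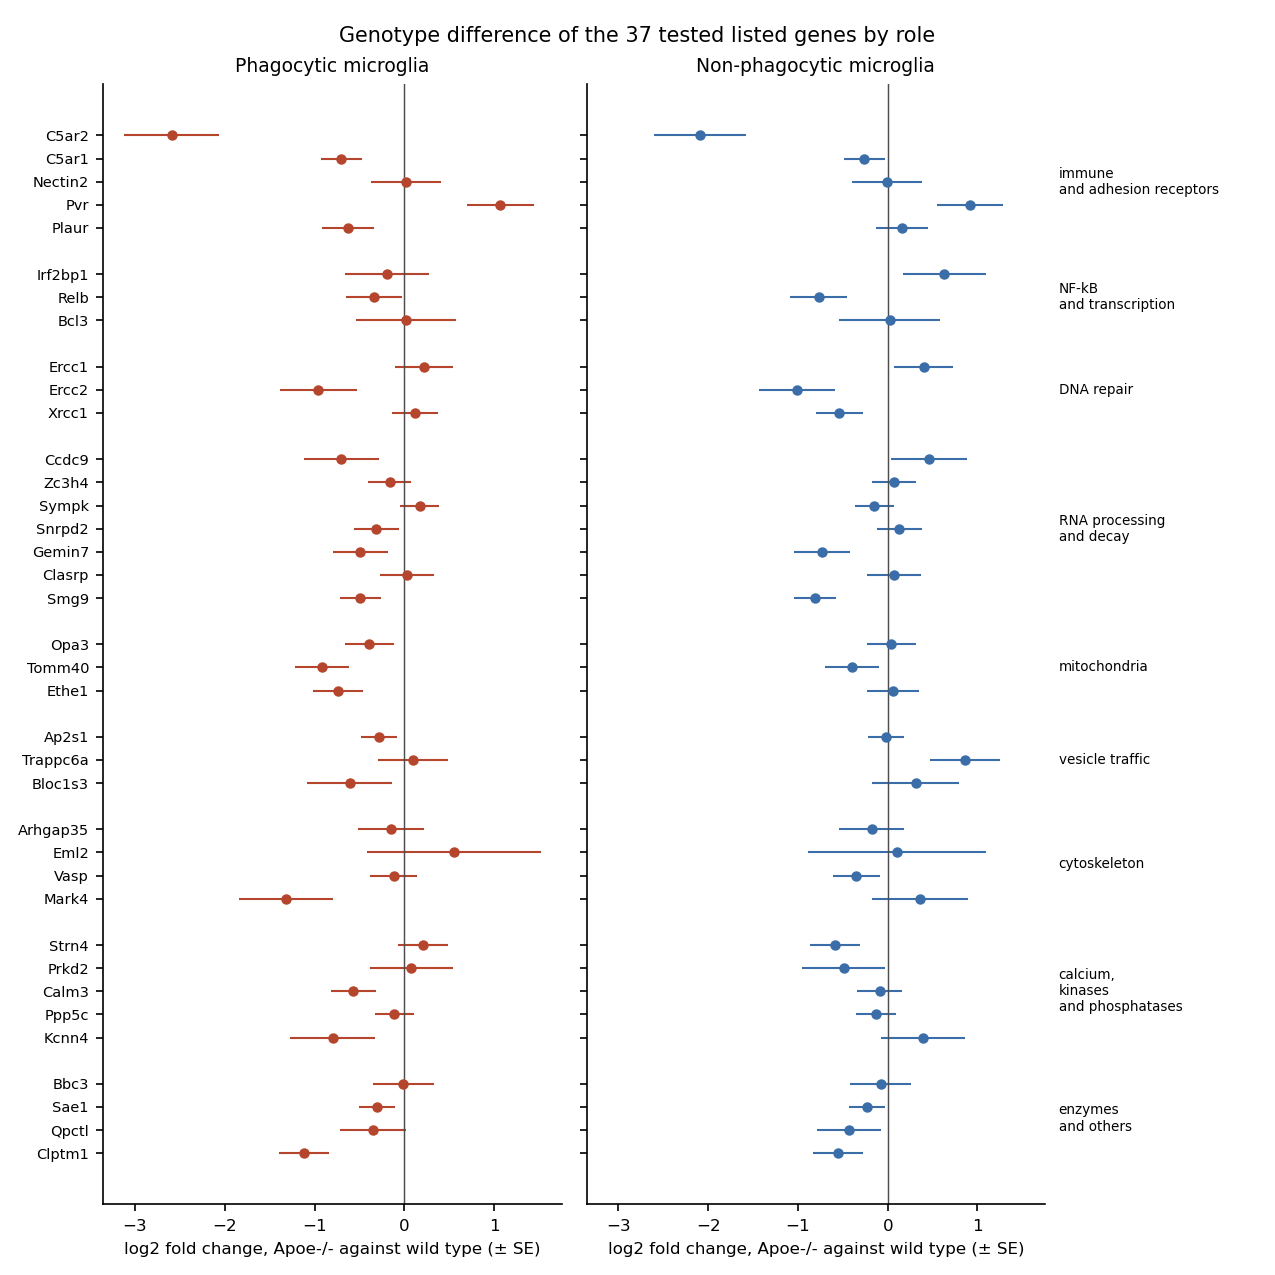
Log2 fold change of each tested listed gene, Apoe -/- against wild type, in phagocytic (left) and non-phagocytic cells (right), with genes in rows grouped by role and bars for the standard error. C5ar2 lies farthest to the left in both panels, at -2.59 and -2.09, and Pvr farthest to the right, at 1.07 and 0.92.

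Differences were set beside the distance from Apoe. In phagocytic cells, 9 of 33 tested chromosome 7 genes within 1 Mb of Apoe, Apoe left out, had an unadjusted p below 0.05 (27.3%), as did 3 of 13 (23.1%) between 1 and 3 Mb and 9 of 66 (13.6%) between 3 and 6 Mb. Beyond that the share was 10.2% up to 12 Mb, 5.51% up to 24 Mb and 7.31% farther out, against 6.42% on other chromosomes. Non-phagocytic cells gave 24.2%, 23.1% and 10.6% in the first 3 windows, then 3.18%, 3.94% and 3.42%, against 3.7% on other chromosomes. The middle window rested on 13 genes. Without the listed genes, the phagocytic shares were 4 of 13 (30.8%), 2 of 8 (25%) and 4 of 54 (7.41%), and the non-phagocytic ones 3 of 13 (23.1%), 2 of 8 (25%) and 5 of 54 (9.26%). Between 3 and 6 Mb in phagocytic cells, the share thus came mostly from the listed genes (5 of 12, or 41.7%). In non-phagocytic cells the 8 genes within 1 Mb became 3 without wild-type replicate 5, 4 without wild-type replicate 4 and 5 without Apoe -/- replicate 5. Within 6 Mb, the size of the difference showed little relation to distance among the 37 listed genes (Spearman's rho 0.06 in phagocytic and -0.06 in non-phagocytic cells, across genes, which share libraries and are not independent). By position, 3 of 12 genes of the stretch before Apoe, 5 of 20 near it and 3 of 5 after it had an unadjusted p below 0.05 in phagocytic cells. The counts in non-phagocytic cells were 2, 5 and 1.

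**Figure D2:**
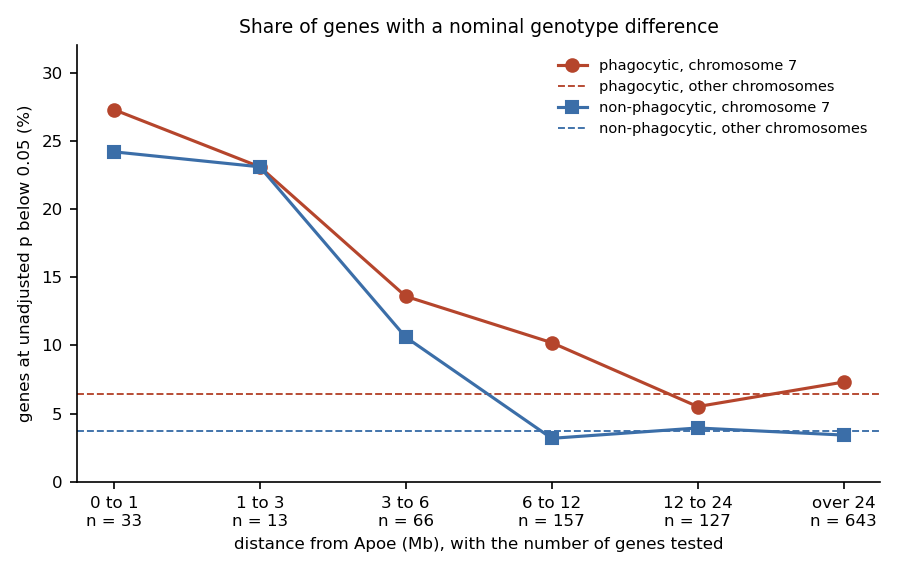
Share of tested chromosome 7 genes with an unadjusted p below 0.05 for the genotype difference (y axis, percent) by distance from Apoe (x axis, Mb), with dashed lines for other chromosomes. Within 1 Mb the share is 27.3% in phagocytic and 24.2% in non-phagocytic cells, and from 12 Mb outward both lie near their dashed lines at 6.42% and 3.7%.

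**Figure D3:**
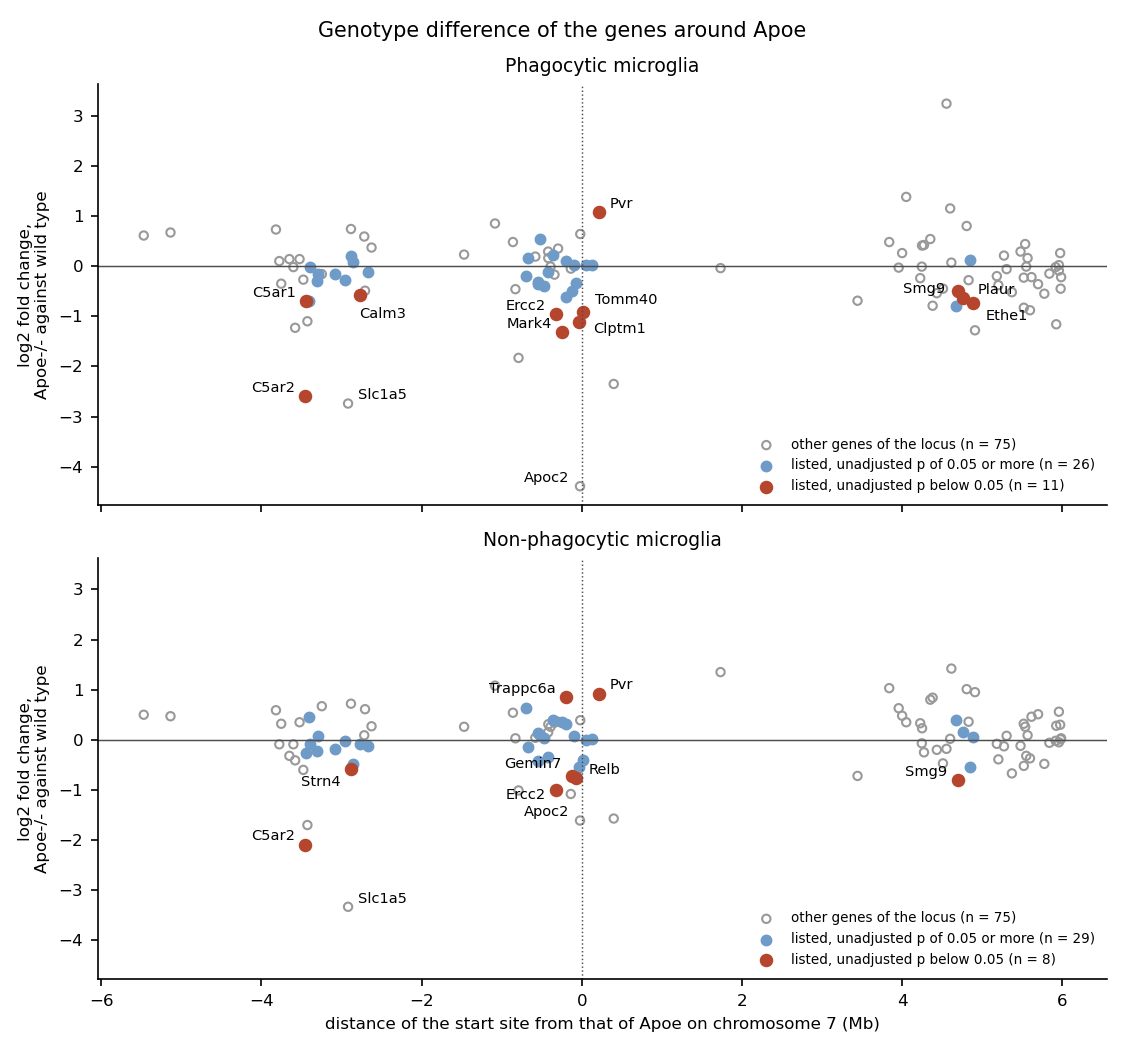
Log2 fold change, Apoe -/- against wild type (y axis), of the 112 tested genes within 6 Mb by distance of the start site from Apoe (x axis, Mb), which itself is left out. Listed genes with an unadjusted p below 0.05 (red, named) lie in all 3 stretches of the list, and C5ar2 and the unlisted Slc1a5 lie lowest among genes more than 1 Mb before Apoe.

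Among the receptors, C5ar2 had the lowest p of the list in both sorts. C5ar2 encodes the second receptor for the complement fragment C5a, which signals without G proteins and can dampen its partner C5aR1. The gene lies at chr7:16234585-16244154 (minus strand), 3.46 Mb before Apoe. Wild-type phagocytic libraries held 64.4, 20.9, 36, 27 and 12.9 CPM of C5ar2, and Apoe -/- phagocytic libraries 0.54 to 10.9 CPM with a median of 5.72. Every Apoe -/- value lay below every wild-type value. The log2 fold change was -2.59 ± 0.53 (SE), a 6.01-fold lower level, with an unadjusted p of 4.35e-05 and an adjusted p of 0.0771 (edgeR), just short of the threshold. Wild-type non-phagocytic libraries held 25.4, 54.2, 45.1, 22.2 and 9.97 CPM, and Apoe -/- ones 4.27 to 14.4 CPM with a median of 6.67. Here the groups overlapped through wild-type replicate 5 and Apoe -/- replicate 4, and the log2 fold change was -2.09 ± 0.51 (SE, unadjusted p = 0.000358, adjusted p = 0.999, edgeR).

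The call on C5ar2 depended on the test. In phagocytic cells C5ar2 passed with DESeq2 (-2.60, adjusted p = 0.00212) and without a filter on low counts (-2.61, adjusted p = 2.91e-05, edgeR). It also passed with edgeR and replicate numbers as a block (-2.71, adjusted p = 0.043), which pairs pools of the 2 genotypes that the labels do not link. Without wild-type phagocytic replicate 5 (-2.79, adjusted p = 0.0418, edgeR) or without Apoe -/- phagocytic replicate 1 (-2.77, adjusted p = 0.0446, edgeR) it passed as well. In 19 of 24 alternative fits C5ar2 did not pass, as in the main one. In non-phagocytic cells C5ar2 passed without a filter (-2.11, adjusted p = 0.00518, edgeR). Among only the libraries with more than 5 summed CPM of Ddx3y and Eif2s3y, the phagocytic difference was -2.86 (adjusted p = 0.357, edgeR). Bulk RNA cannot tell fewer cells that express a gene from less RNA per cell, here or in the results that follow. The monocyte markers given above were lower in Apoe -/- phagocytic cells, as were C5ar2 and C5ar1, and their part in these differences was not tested. In non-phagocytic cells the summed monocyte markers had medians of 786 CPM in wild type (610 to 2840) and 785 CPM in Apoe -/- (431 to 1150). Summed border macrophage markers had medians of 184 CPM in wild-type (163 to 441) and 127 CPM in Apoe -/- phagocytic libraries (59.6 to 191). In non-phagocytic cells these medians were 35 CPM (20.4 to 56.8) and 16.4 CPM (8.56 to 43.7). Summed rod markers there had medians of 1600 CPM in wild type (1050 to 5290) and 3310 CPM in Apoe -/- (1950 to 4320). The part of all these markers in the genotype differences was not tested either.

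The deposited counts are per transcript, and C5ar2 has 2 annotated transcripts with start sites 1823 bp apart. C5ar2-201 was estimated at 0 in all 12 Apoe -/- libraries. In wild-type libraries it stood at 5.62, 6.39, 0, 0 and 3.63 TPM in phagocytic cells and at 0, 17.7, 13.8, 0 and 0 TPM in non-phagocytic cells. C5ar2-202 was read in all 12 Apoe -/- libraries, with a mean of 1.36 TPM in phagocytic and 1.96 TPM in non-phagocytic cells, against 6.11 and 4.12 TPM in wild type. The lowest Apoe -/- phagocytic library held 1 read of it. C5ar2-202 also had zeros in wild type, at 12.8, 0, 10.6, 7.17 and 0 TPM in phagocytic libraries. The zeros of C5ar2-201 were thus shared by 5 wild-type libraries, and neither transcript passed an adjusted p of 0.05 (edgeR on transcripts, a test added after the data were seen). Salmon, the program that made the counts, divides reads that fit both transcripts between them, so such zeros may be failed estimates.

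The sequences before these 2 start sites are shown because the transcript that stood at 0 in Apoe -/- libraries begins at one of them and the transcript that was still read begins at the other. Each is the 250 bases upstream of the start in RefSeq (build GRCm38.p6), 5′ to 3′ on the minus strand, from chr7:16242332-16242581 and chr7:16244155-16244404. Capitals mark GAGGAA, the core letters bound by the myeloid factor PU.1, and TGANTCA, the AP-1 motif, each searched on both strands.
C5ar2-201: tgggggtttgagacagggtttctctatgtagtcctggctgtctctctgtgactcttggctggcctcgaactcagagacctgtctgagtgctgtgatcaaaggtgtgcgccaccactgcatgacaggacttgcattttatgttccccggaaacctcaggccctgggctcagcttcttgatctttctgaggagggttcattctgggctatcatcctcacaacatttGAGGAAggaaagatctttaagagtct
C5ar2-202: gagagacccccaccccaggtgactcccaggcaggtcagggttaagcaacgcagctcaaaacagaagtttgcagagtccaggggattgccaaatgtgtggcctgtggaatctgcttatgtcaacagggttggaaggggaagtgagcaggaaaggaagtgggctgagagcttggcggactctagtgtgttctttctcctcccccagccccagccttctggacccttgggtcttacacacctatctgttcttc
GAGGAA occurred 1 time before C5ar2-201 and not before C5ar2-202, and TGANTCA occurred before neither. Of 32817 upstream windows of this length in the table, 23.3% hold GAGGAA and 6.75% hold TGANTCA, so the 1 match is a common one. The table held a window for 35 of the 40 listed genes.

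C5ar1, the G protein-coupled receptor for C5a and the most abundant listed gene per length, lies beside C5ar2 at chr7:16246743-16259540. Wild-type phagocytic libraries held 255, 477, 390, 293 and 371 CPM, and Apoe -/- phagocytic libraries 194 to 241 CPM with a median of 223. The groups did not overlap, and the log2 fold change was -0.70 ± 0.23 (SE, unadjusted p = 0.00493, adjusted p = 0.493, edgeR). In non-phagocytic cells wild type held 217, 362, 411, 182 and 284 CPM and Apoe -/- held 118 to 309 CPM. These groups overlapped widely, and the log2 fold change of C5ar1 was -0.26 ± 0.23 (SE).

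Pvr encodes CD155, the poliovirus receptor homologue that binds the lymphocyte receptors DNAM-1 and TIGIT, and lies 0.22 Mb after Apoe at chr7:19903578-19921160. Wild-type phagocytic libraries held 10.5, 11.9, 18, 15.8 and 16.4 CPM of Pvr, and Apoe -/- phagocytic libraries 12.8 to 60 CPM with a median of 26.1. Of the 6 Apoe -/- libraries, 5 lay above the highest wild-type library, and the log2 fold change was 1.07 ± 0.37 (SE, unadjusted p = 0.00809, adjusted p = 0.584, edgeR). Non-phagocytic wild-type libraries held 15.5, 8.23, 19, 18.4 and 31.6 CPM, and Apoe -/- ones 18.5 to 54.5 CPM with a median of 34.3. The log2 fold change of Pvr there was 0.92 ± 0.37 (SE, unadjusted p = 0.0193, adjusted p = 0.999, edgeR), with overlap of the groups. The difference lay in the coding transcript Pvr-201, at 2.97 ± 0.477 TPM (SD, n = 5) in wild-type and 6.83 ± 5.28 TPM (SD, n = 6) in Apoe -/- phagocytic cells. In non-phagocytic cells Pvr-201 stood at 2.54 ± 1.04 (SD, n = 5) and 7.74 ± 6.25 TPM (SD, n = 6). Its retained-intron forms did not move together. Pvr-202 stood at 1.59 and 2.03 TPM in phagocytic cells. Pvr-205, with at most 9 reads in a library and not tested, stood at 2.14 TPM in wild-type and 0.468 TPM in Apoe -/- phagocytic cells, and at 3.53 and 1.09 TPM in non-phagocytic cells. Gene-level TPM of Pvr, which sums all its transcripts, was 8.18 against 10.5 in phagocytic and 11.8 against 12.7 in non-phagocytic cells, a smaller difference than in CPM.

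Plaur, the receptor that holds urokinase at the cell surface, lies 4.76 Mb after Apoe at chr7:24462484-24475968. It stood at 92.9, 80.8, 79.3, 69.7 and 119 CPM in wild-type phagocytic libraries and at 28.4 to 106 CPM, median 49.7, in Apoe -/- ones. For Plaur the log2 fold change was -0.63 ± 0.29 (SE, unadjusted p = 0.0356, adjusted p = 0.74, edgeR), with overlap through Apoe -/- replicates 4 and 5. In non-phagocytic cells it was 0.16 ± 0.29 (SE). Nectin2, an adhesion molecule of the same family as Pvr that starts 51.3 kb from Apoe, had log2 fold changes of 0.02 and -0.01 in the 2 sorts.

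**Figure D4:**
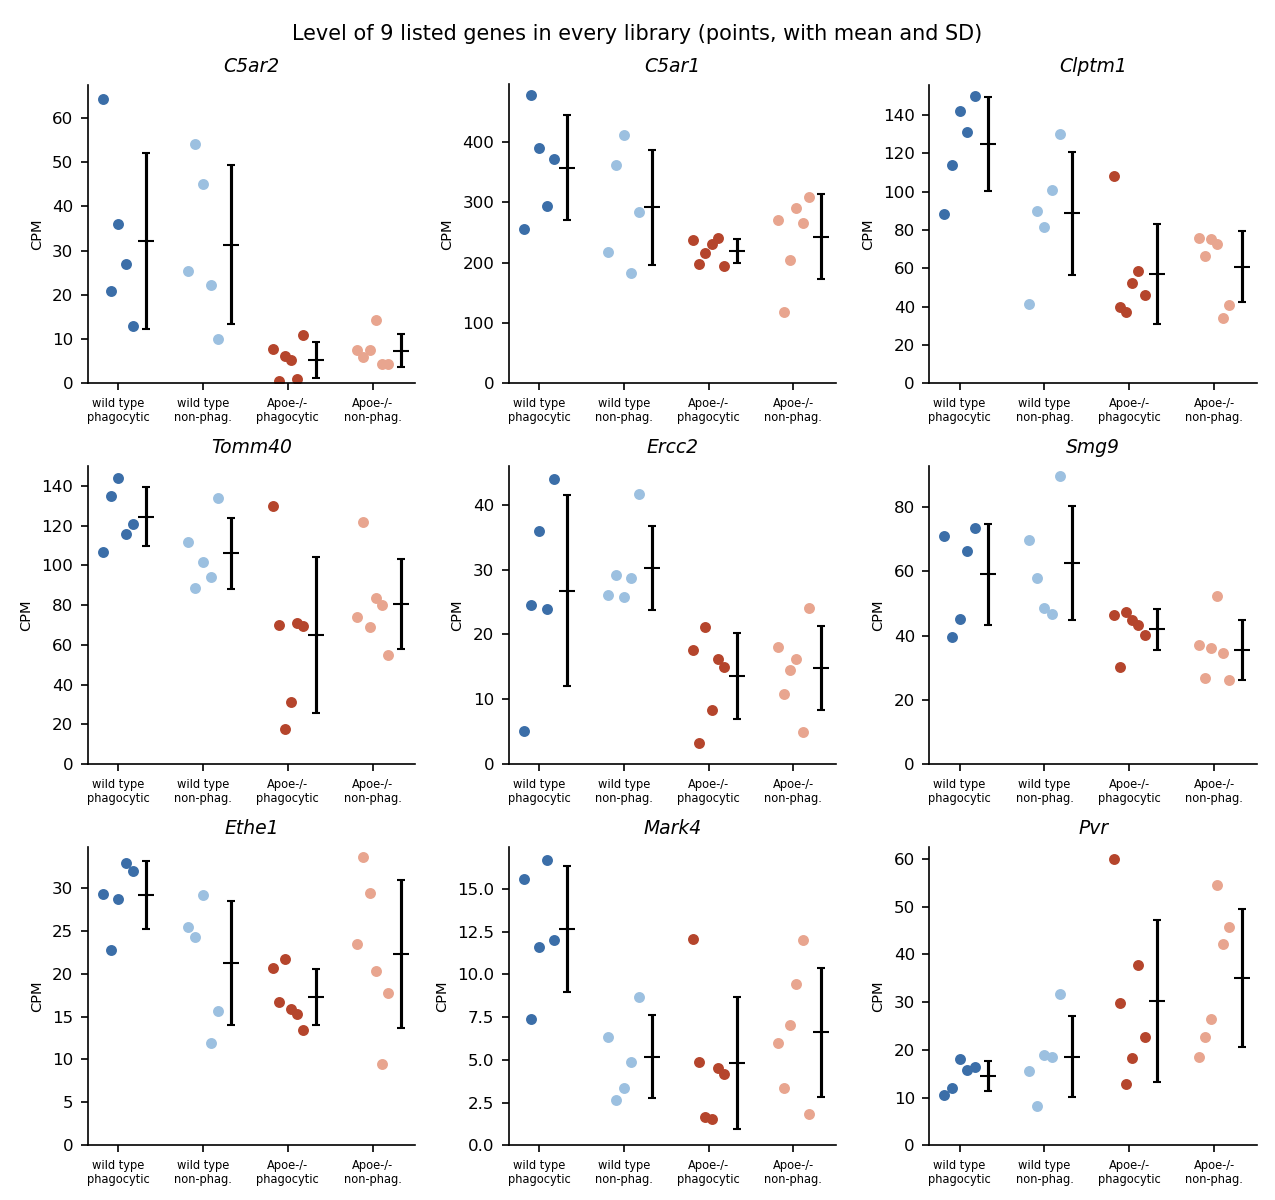
Level of 9 listed genes in CPM (y axes, from 0) in every library of the 4 groups, with points for libraries and black marks for the mean and SD. C5ar2, C5ar1 and Ethe1 do not overlap between genotypes in phagocytic cells, and Apoe -/- phagocytic replicate 1, the first point of its group, reaches 108 CPM for Clptm1 and 130 CPM for Tomm40.

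Next to Apoe, Clptm1 and Tomm40 stood lower in Apoe -/- phagocytic cells in all but 1 library. Clptm1, a membrane protein that limits the delivery of GABA-A receptors in neurons, starts 34.2 kb before Apoe at chr7:19631571-19665033. Wild-type phagocytic libraries held 88.2, 114, 142, 131 and 150 CPM, and Apoe -/- ones 37.3 to 108 CPM with a median of 49.1. The log2 fold change of Clptm1 was -1.12 ± 0.28 (SE, unadjusted p = 0.000494, adjusted p = 0.288, edgeR). Only Apoe -/- replicate 1, at 108 CPM, lay within the wild-type range, and without that library the value was -1.43 (adjusted p = 0.0155, edgeR). Without a filter on low counts Clptm1 also passed (-1.15, adjusted p = 0.0114, edgeR). In non-phagocytic cells wild type held 41.6, 89.7, 81.6, 101 and 130 CPM and Apoe -/- 34 to 75.7 CPM, with a log2 fold change of -0.55 ± 0.28 (SE). Much of the signal of Clptm1 was assigned to a retained-intron transcript, Clptm1-208, at 26.7 ± 7.54 TPM (SD, n = 5) in wild-type and 9.62 ± 6.61 TPM (SD, n = 6) in Apoe -/- phagocytic cells.

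Tomm40 starts 16.2 kb from Apoe at chr7:19701313-19715438. Wild-type phagocytic libraries held 107, 135, 144, 116 and 121 CPM, a narrow range. Apoe -/- phagocytic libraries ran from 17.8 to 130 CPM with a median of 69.8, and 5 of the 6 lay below all wild-type libraries. Tomm40 had a log2 fold change of -0.92 ± 0.30 (SE, unadjusted p = 0.00501, adjusted p = 0.493, edgeR) in phagocytic and -0.40 ± 0.30 (SE) in non-phagocytic cells. Its main transcript, Tomm40-202, stood at 64.1, 89.9, 94, 65 and 66.2 TPM in wild-type phagocytic libraries. In Apoe -/- phagocytic libraries Tomm40-202 was estimated at 0 in 3 of 6 and reached 81.1 TPM in replicate 1. Tomm40-201, whose annotated ends differ from it by few bases, stood at 2.79 TPM in wild-type and 10.9 TPM in Apoe -/- phagocytic cells. The wide spread of the Apoe -/- group was present in the gene-level sums as well.

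The other mitochondrial members lie farther out. Ethe1, a dioxygenase that clears hydrogen sulfide, lies 4.89 Mb after Apoe at chr7:24587543-24608925. Wild-type phagocytic libraries held 29.3, 22.8, 28.7, 32.9 and 32 CPM and Apoe -/- ones 13.4 to 21.7 CPM with a median of 16.3, without overlap. The log2 fold change of Ethe1 was -0.74 ± 0.28 (SE, unadjusted p = 0.0152, adjusted p = 0.636, edgeR) in phagocytic and 0.06 ± 0.29 (SE) in non-phagocytic cells. Opa3, a protein of mitochondrial shape, had values of -0.39 and 0.04. All 3 mitochondrial genes thus had a value below 0 in phagocytic cells, with a median of -0.74, and 2 of the 3 had an unadjusted p below 0.05 (50.5% and 6.62% of all genes). In non-phagocytic cells 1 of the 3 lay below 0, with a median of 0.04.

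Non-overlap was counted over the list as well. In phagocytic cells 3 of 37 listed genes (C5ar1, C5ar2 and Ethe1, all lower) had groups that did not overlap, or 8.11%, against 0.789% of all genes in either direction and 0.491% in the lower one. In non-phagocytic cells 1 of 37 did, namely Ercc2 with the lower level, against 0.298% and 0.193%.

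Ercc2 encodes XPD, a helicase of the transcription factor TFIIH that opens DNA in nucleotide excision repair, and lies 0.32 Mb before Apoe at chr7:19382010-19395694. Wild-type non-phagocytic libraries held 26.1, 29.2, 25.7, 28.7 and 41.6 CPM and Apoe -/- ones 5.03 to 24.1 CPM with a median of 15.4. The groups did not overlap, and the log2 fold change of Ercc2 was -1.01 ± 0.42 (SE, unadjusted p = 0.0246, adjusted p = 0.999, edgeR). In phagocytic cells wild type held 5.08, 24.5, 36, 24 and 44 CPM and Apoe -/- 3.24 to 21.2 CPM, with a log2 fold change of -0.96 ± 0.43 (SE, unadjusted p = 0.0336, adjusted p = 0.74, edgeR). Here wild-type replicate 1, at 5.08 CPM, lay among the Apoe -/- libraries. The estimates for its transcripts went in opposite directions. Ercc2-201 stood at 5.92 TPM in wild-type and 0.422 TPM in Apoe -/- phagocytic cells, and at 5.69 and 0.674 TPM in non-phagocytic cells, with 5 of 6 libraries at 0 in each Apoe -/- group. Ercc2-202, whose start site differs by few bases, stood at 0.132 against 1.77 TPM and at 0.1 against 1.02 TPM, with 4 of 5 libraries at 0 in each wild-type group. The coding gene Klc3 overlaps Ercc2 on the other strand.

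The other listed repair genes had an unadjusted p above 0.05 in both sorts (edgeR). Ercc1, the partner of the repair nuclease XPF, had log2 fold changes of 0.22 and 0.40 in the 2 sorts. Xrcc1, the scaffold of single-strand break repair, had 0.12 in phagocytic cells. In non-phagocytic cells Xrcc1 had -0.54 ± 0.26 (SE, unadjusted p = 0.0515, edgeR), in the direction of Ercc2. Of 16 excision repair genes elsewhere in the genome, none passed an adjusted p of 0.05 in either sort (edgeR). In phagocytic cells 2 of the 16, Xpa and Parp1, had an unadjusted p below 0.05 and were lower (4.19% of all genes), and in non-phagocytic cells none had such a p (3.8% of all genes did). Their median was 0.10 and -0.04.

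**Figure D5:**
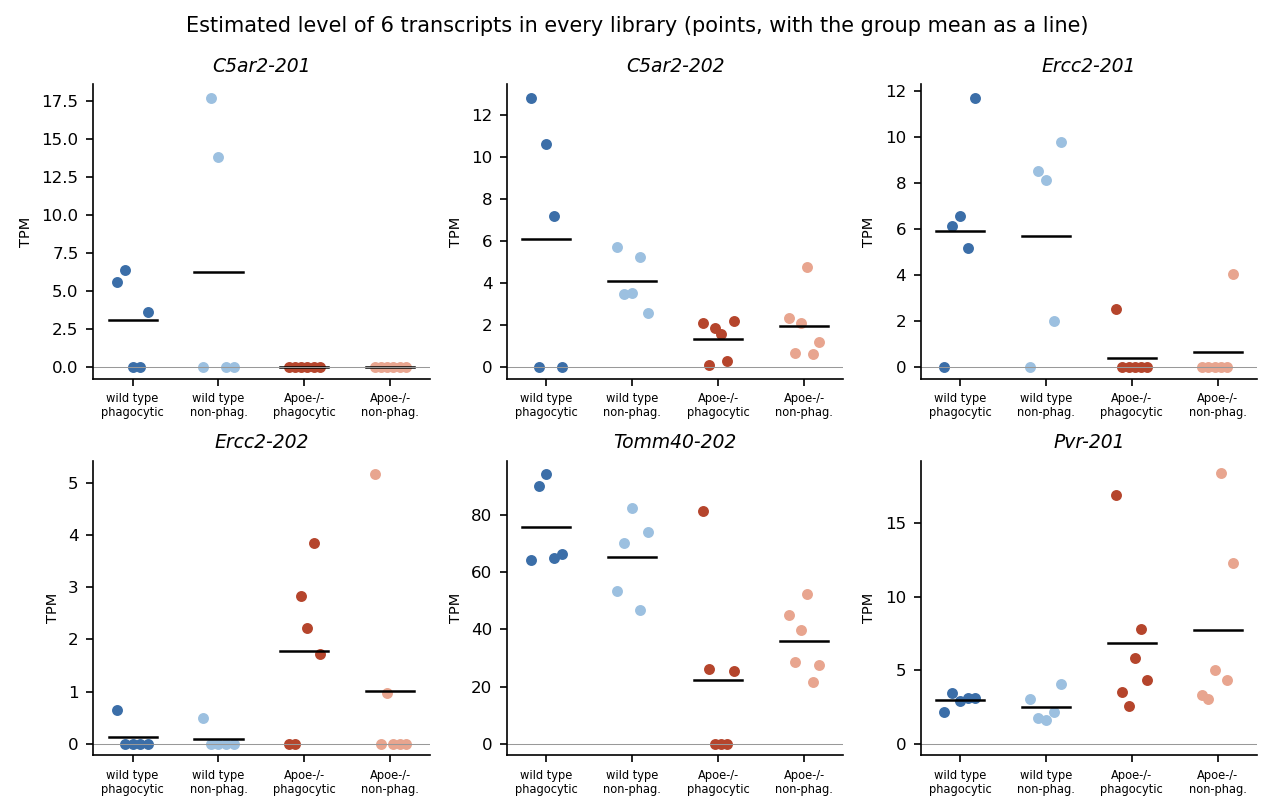
Estimated level in TPM (y axes) of 6 transcripts of listed genes in every library of the 4 groups, with points for libraries and a line for the group mean. C5ar2-201 lies at 0 in all 12 Apoe -/- libraries and in 5 wild-type libraries, and Ercc2-201 lies at 0 in 5 of 6 libraries of each Apoe -/- group.

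Of 252 annotated transcripts of the listed genes, 74 were tested and none passed an adjusted p of 0.05, where 0.0121% of 24888 transcripts passed in phagocytic and 0.00804% in non-phagocytic cells (edgeR). An unadjusted p below 0.05 was found for 10 of 74 (13.5%) in phagocytic cells, against 4.34% of all transcripts, and for 5 of 74 (6.76%) in non-phagocytic cells, against 3.06%. C5ar2-201 and Pvr-201 were in both sets.

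Among genes of RNA processing and decay, Smg9 was lower in both sorts. Smg9 encodes a subunit of the kinase complex that starts nonsense-mediated decay, and lies 4.70 Mb after Apoe at chr7:24399619-24422778. Wild-type non-phagocytic libraries held 69.8, 58, 48.5, 46.6 and 89.7 CPM and Apoe -/- ones 26.3 to 52.3 CPM with a median of 35.3. The log2 fold change of Smg9 was -0.81 ± 0.23 (SE, unadjusted p = 0.00142, adjusted p = 0.999, edgeR), with overlap through Apoe -/- replicate 4. In phagocytic cells wild type held 71.1, 39.6, 45, 66.3 and 73.3 CPM and Apoe -/- 30.2 to 47.3 CPM, with a log2 fold change of -0.49 ± 0.23 (SE, unadjusted p = 0.0404, adjusted p = 0.74, edgeR). Gemin7, a subunit of the SMN complex that assembles spliceosomal particles, stood at 46.5, 25.8, 38.8, 48.8 and 44.2 CPM in wild-type and at 9.24 to 35.3 CPM, median 26.4, in Apoe -/- non-phagocytic libraries. Its log2 fold change was -0.73 ± 0.31 (SE, unadjusted p = 0.0288, adjusted p = 0.999, edgeR) there and -0.49 ± 0.31 (SE) in phagocytic cells. The other 5 genes of this role had values between -0.70 (Ccdc9) and 0.17 (Sympk, a scaffold of polyadenylation) in phagocytic cells. In non-phagocytic cells they ran from -0.15 (Sympk) to 0.46 (Ccdc9).

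Relb, the NF-kB subunit of the non-canonical pathway, lies 69.8 kb from Apoe at chr7:19606217-19629438. Wild-type non-phagocytic libraries held 32.4, 42.3, 30.9, 66.7 and 71.9 CPM and Apoe -/- ones 15.1 to 55.3 CPM with a median of 25.6. The groups overlapped, and the log2 fold change of Relb was -0.77 ± 0.32 (SE, unadjusted p = 0.0212, adjusted p = 0.999, edgeR). In phagocytic cells it was -0.34 ± 0.31 (SE). Bcl3, an atypical NF-kB inhibitor that acts in the nucleus, had 0.02 in both sorts, and Irf2bp1, a corepressor, had -0.19 and 0.63. Of 12 NF-kB pathway genes elsewhere in the genome none passed an adjusted p of 0.05 in either sort (edgeR). Map3k14, the kinase that starts the non-canonical pathway, had an unadjusted p below 0.05 in non-phagocytic cells and was lower (2.02% of all genes), as the only one of the 12 in the 2 sorts. Their medians were -0.12 and -0.11.

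Of 12 complement and urokinase genes elsewhere, 11 were tested and none passed in the genotype comparisons (edgeR). In phagocytic cells 3 of 11 (Itgax, C1qc and Plau) were lower at an unadjusted p below 0.05, against 4.19% of all genes, and in non-phagocytic cells 2 of 11 (C3 and Plau) were, against 2.02%. Their medians were -0.13 and -0.12. Plau encodes urokinase, the ligand of the receptor made by Plaur.

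The remaining members with low p were scattered over roles. Mark4, a kinase that loosens microtubules by acting on tau and related proteins, lies 0.24 Mb before Apoe. It stood at 15.6, 7.4, 11.6, 16.7 and 12 CPM in wild-type phagocytic libraries and at 1.52 to 12.1 CPM, median 4.34, in Apoe -/- ones. Its log2 fold change was -1.32 ± 0.52 (SE, unadjusted p = 0.0175, adjusted p = 0.672, edgeR), and 0.36 ± 0.53 (SE) in non-phagocytic cells. Calm3, 1 of the genes for calmodulin, stood at 107, 80.1, 66.5, 106 and 52 CPM in wild-type and 32.4 to 75.2 CPM in Apoe -/- phagocytic libraries, with a log2 fold change of -0.57 ± 0.25 (SE, unadjusted p = 0.0327, adjusted p = 0.74, edgeR). In non-phagocytic cells Trappc6a, a subunit of the TRAPP tethering complex, stood at 18.3, 8.23, 10.1, 15.7 and 6.07 CPM in wild-type and 13.4 to 25.7 CPM in Apoe -/- libraries. Its log2 fold change was 0.86 ± 0.39 (SE, unadjusted p = 0.0379, adjusted p = 0.999, edgeR), against 0.10 ± 0.39 (SE) in phagocytic cells. Strn4, a subunit of the STRIPAK phosphatase complex, stood at 33.8, 42.3, 54.4, 58 and 52 CPM in wild-type and 15.1 to 51.8 CPM in Apoe -/- non-phagocytic libraries. Its log2 fold change was -0.59 ± 0.28 (SE, unadjusted p = 0.0445, adjusted p = 0.999, edgeR), against 0.21 ± 0.28 (SE) in phagocytic cells.

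The other 22 tested members had unadjusted p-values above 0.05 in both sorts. Among them, Ap2s1, a subunit of the clathrin adaptor and the second most abundant listed gene per length, had log2 fold changes of -0.28 ± 0.20 and -0.02 ± 0.20 (SE). Vasp, which lengthens actin filaments, had -0.12 ± 0.26 and -0.35 ± 0.26 (SE). Bbc3, which encodes the cell death protein PUMA, had -0.01 ± 0.34 and -0.08 ± 0.34 (SE), with a 95% interval of -0.72 to 0.69 in phagocytic cells. Eml2, the tested gene with the lowest level per length, had the widest interval, from -1.43 to 2.54 in phagocytic cells, so even large differences of it were not detectable at this depth.

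The second question was whether these genes differed between phagocytic and non-phagocytic cells. No listed gene passed an adjusted p of 0.05 in wild type or in Apoe -/- (edgeR), where 0.209% and 0.467% of all genes passed. In wild type, 4 of 37 had an unadjusted p below 0.05 (10.8%, against 7.74% of all genes), and in Apoe -/- 1 of 37 did (2.7%, against 9.93%). In wild type 3 of these 4 were higher in phagocytic cells (8.11%, against 4.6% of all genes) and 1 was lower (2.7%, against 3.14%). A log2 fold change below 0 was found for 11 of 37 in wild type (29.7%, against 50.8%) and for 21 of 37 in Apoe -/- (56.8%, against 52.3%), with medians of 0.09 and -0.08. Plaur had the lowest p in wild type, at 35.2, 31, 46.2, 65.1 and 37.7 CPM in non-phagocytic and 69.7 to 119 CPM in phagocytic libraries. The groups did not overlap (1 of 37 listed genes, or 2.7%, against 2.14% of all genes and 1.51% with the phagocytic side higher), and the log2 fold change of Plaur was 1.04 ± 0.30 (SE, unadjusted p = 0.002, adjusted p = 0.206, edgeR). The same comparison gave 0.24 ± 0.28 (SE) in Apoe -/-. Mark4 (1.29 ± 0.55, SE) and Calm3 (0.67 ± 0.26, SE) were also higher in wild-type phagocytic libraries at an unadjusted p of 0.0263 and 0.0168, and Strn4 was lower (-0.72 ± 0.29, SE, unadjusted p = 0.0196, edgeR for all 3). Summed markers of border macrophages were 163 to 441 CPM in wild-type phagocytic and 20.4 to 56.8 CPM in wild-type non-phagocytic libraries (6 of 6 read), and their part in these values was not tested.

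Between the sorts of Apoe -/- cells, Kcnn4, a calcium-gated potassium channel of microglia, was the only listed gene with an unadjusted p below 0.05, and lay lower in phagocytic cells (4.45% of all genes did). It held 3.34 to 49.8 CPM, median 15.6, in phagocytic and 12.6 to 62.6 CPM, median 38.4, in non-phagocytic libraries. Kcnn4 had a log2 fold change of -0.95 ± 0.46 (SE, unadjusted p = 0.048, adjusted p = 0.495, edgeR), with wide overlap. The next lowest p-values of that comparison were those of Ccdc9 (-0.64 ± 0.41, SE), Irf2bp1 (-0.69 ± 0.45, SE) and Relb (0.44 ± 0.31, SE). Of the partner genes elsewhere, only C3, the central complement protein, passed in Apoe -/-, where 0.467% of all genes did. It was higher in phagocytic cells (2.34 ± 0.53, SE, adjusted p = 0.0379, edgeR). In wild type C3 had a similar value that did not pass (2.15 ± 0.54, SE, adjusted p = 0.097, edgeR). The difference between genotypes in this effect was 0.19 ± 0.71 (SE, unadjusted p = 0.794, edgeR).

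The third question was whether the difference between sorts itself differed by genotype. No gene passed an adjusted p of 0.05 in that test (edgeR), among listed genes or among all 12415, and 301 genes had an unadjusted p below 0.05 (2.42%). Mark4 was the only listed gene among these 301 (1 of 37, or 2.7%), with a value below 0, as for 1.3% of all genes. Over the list, 21 of 37 values lay below 0 (56.8%, against 51.5%), with a median of -0.07. Its phagocytic level was 12.7 CPM in wild type and 4.81 in Apoe -/-, its non-phagocytic level 5.17 and 6.61 CPM, and the log2 difference between genotypes in the effect of the sort was -1.68 ± 0.75 (SE, unadjusted p = 0.0336, adjusted p = 1, edgeR). Strn4 (0.80 ± 0.40, SE), Ethe1 (-0.80 ± 0.40, SE) and Ccdc9 (-1.16 ± 0.59, SE) came next. That C5ar1, Clptm1, Tomm40 and Ethe1 had an unadjusted p below 0.05 in phagocytic cells alone is therefore not shown to be a difference between the sorts.

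Of all other tested genes within 6 Mb, Slc1a5 and Apoc2 passed an adjusted p of 0.05 in a genotype comparison. Slc1a5, a transporter of neutral amino acids such as glutamine, starts 2.92 Mb before Apoe, between the listed genes Ap2s1 and Strn4. It stood at 45.7 to 103 CPM in wild-type and 0 to 20.5 CPM in Apoe -/- phagocytic libraries, and at 83.2 to 116 and 2.52 to 20.2 CPM in non-phagocytic libraries. Slc1a5 fell by 2.74 ± 0.43 (SE, adjusted p = 0.00405, edgeR) on the log2 scale in phagocytic cells and by 3.33 ± 0.43 (SE, adjusted p = 0.000234, edgeR) in non-phagocytic cells, without overlap in either. The listed genes on both sides of it had smaller differences, with -0.28 and -0.02 for Ap2s1 and 0.21 and -0.59 for Strn4. Apoc2, which encodes the cofactor of lipoprotein lipase and starts 21.2 kb from Apoe, stood at 32.2 to 152 CPM in wild-type and 0 to 13.5 CPM in Apoe -/- phagocytic libraries. It fell by 4.39 ± 0.77 (SE, adjusted p = 0.0152, edgeR) in phagocytic cells, and had a value of -1.61 ± 0.67 (SE, adjusted p = 0.999, edgeR) in non-phagocytic cells.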

How the data were processed

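Members and lists were chosen with earlier results of these data known. The authors deposited, per library, an estimated count and a TPM value for each of 116248 transcripts, and a table of FPKM values for genes said to exceed an FPKM of 5, per the file headers. Tools named without roles were DESeq2 1.30.1, R 4.0.3 and Salmon 1.4.0, with mm10 as build, per the submitters' processing notes. Annotation release and strand setting: not given in the sources used here, so reads of genes that overlap on opposite strands (among them Ercc1, Ercc2, Qpctl, Gemin7, Ethe1, Arhgap35 and Pvr) cannot be told apart.

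Transcripts were matched to GENCODE M21 (116072 matched), and the 176 others, with 0.118% to 0.262% of reads, stayed out. Estimated counts were summed per gene and rounded. Tests used edgeR 4.0.16 in R 4.3.3 (quasi-likelihood, TMM scaling, filterByExpr, all 22 libraries in 1 model of 4 groups), with Benjamini-Hochberg adjustment over 12415 genes and a threshold of 0.05. The fit was tested on simulated data. Distances run between start sites. CPM in the text use TMM library sizes. TPM and FPKM entered alternative tests as log2(value + 1) in limma 3.58.1, and DESeq2 1.42.0 was run as another alternative. The depth of 1131045 to 3643499 reads limits precision at low levels, and no molecular identifiers were used. The labels number pools but do not say whether the 2 sorts of a number share animals, or how separate the pools were, so p-values measure the spread between these samples, which may be technical. Listed genes given with full values were those called in any comparison (none were), the 8 of lowest p in each genotype comparison and the 4 of lowest p in each other one, and unlisted genes within 6 Mb were named where called. Summed reads of Ddx3y and Eif2s3y lay below the split at 5 CPM in wild-type pool 5 and Apoe -/- pools 4, 5 and 6. In those pools the sum ran from 0 to 2.7 CPM. Pools named as having reads of Y-linked genes are those above the split.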

Additional observations from a re-analysis of the deposited data

Results flagged for a closer look

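Among 18 listed genes with values by library, 8 of 72 gene and group pairs held a library far from the others of its group by Dixon's criterion, where chance gives about 1 in 20. In Apoe -/- phagocytic replicate 1, Clptm1 stood at 108 CPM (next highest 58.6), Mark4 at 12.1 CPM (next 4.86) and Kcnn4 at 49.8 CPM (next 19.2). In Apoe -/- phagocytic replicate 5, Ccdc9 and Irf2bp1 both stood at 13.5 CPM, where the next highest libraries held 6.69 and 6.88. C5ar2 reached 14.4 CPM in Apoe -/- non-phagocytic replicate 4 (next 7.62). Ercc2 reached 41.6 CPM in wild-type non-phagocytic replicate 5 (next 29.2), and Ccdc9 fell to 4.34 CPM in wild-type non-phagocytic replicate 4, below a next lowest of 6.71. The reasons were not tested.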

How the results depend on the processing

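For single listed genes, 700 of 708 alternative values kept their direction and side of the threshold, and the other 8, all given above for C5ar2 and Clptm1, passed it with the direction unchanged. The number of listed genes called in phagocytic cells, 0 in the report, was 2 without a filter on low counts, 1 with the replicate block, 1 with DESeq2 and 0 to 2 with 1 library left out. In non-phagocytic cells it was 1 without a filter. Without a filter the numbers of all genes called became 96 (phagocytic, from 4) and 16 (non-phagocytic, from 2) between genotypes, 122 (wild type, from 26) and 137 (Apoe -/-, from 58) between sorts, and 17 (from 0) for the difference between genotypes in the effect of the sort, and genes within 6 Mb at unadjusted p below 0.05 became 78 and 60 (from 21 and 18) and those within 1 Mb in non-phagocytic cells 17 (from 8). DESeq2 called 24 genes in phagocytic cells, 102 and 165 between sorts and 2 for the difference between genotypes in the effect of the sort. With the replicate block 7 genes were called in phagocytic cells, where it paired pool numbers across genotypes, which the labels do not link. Between sorts, where it paired the 2 sorts of a number, 135 and 255 were called. The block changed no other call on a listed gene. Whether pool numbers pair the 2 sorts is not settled: correlations of same-numbered deviations ran from 0.04 to 0.42 in wild type and from 0.06 to 0.21 in Apoe -/-, with 1 number below 0.1 in wild type, 2 of 5 and 5 of 6 numbers correlated best with their own, and the presence of Y-linked reads matched by number in both sorts. Other settings that moved the count of genes called were a fit of the compared groups alone (2, phagocytic), TPM (7 phagocytic, 15 between sorts in Apoe -/-), FPKM (26 between sorts in Apoe -/-), a sex term (49 and 89 between sorts), the satellite-like share as a covariate (59 between sorts in wild type) and only pools with reads of Y-linked genes (2, phagocytic). In those pools, with fewer libraries, genes at unadjusted p below 0.05 numbered 4 and 2 within 1 Mb, 10 and 10 within 6 Mb, and 5 and 4 among listed genes, in the 2 sorts. With FPKM the non-phagocytic counts were 4 within 1 Mb and 5 listed, and without Apoe -/- non-phagocytic libraries 2 and 5 they were 4, 8 (6 Mb) and 4. TPM and FPKM shifted the median of all genes by -0.19 and -0.11 in phagocytic and by -0.29 and -0.20 in non-phagocytic cells, and the listed median to -0.46 (TPM, phagocytic), -0.38 (TPM, non-phagocytic) and -0.30 (FPKM, non-phagocytic), or -0.26, -0.09 and -0.10 relative to all genes. The listed median for the difference between genotypes in the effect of the sort, -0.07, was -0.23 without a filter, -0.19 with length-scaled counts and -0.21 with DESeq2. With 1 library left out, listed medians ran from -0.36 to -0.19 in phagocytic cells, 0.04 to 0.22 between sorts in wild type and -0.29 to -0.04 for the difference between genotypes in the effect of the sort. Genes called ran from 3 to 23 in phagocytic cells, 13 to 64 and 18 to 89 between sorts. Non-phagocytic genes at unadjusted p below 0.05 ran from 3 to 9 within 1 Mb, 11 to 20 within 6 Mb and 3 to 9 among listed genes, and phagocytic listed genes from 7 to 12. Where not shown by fewer libraries or genes, the cause was not tested. The fit of those pools, the fit without both satellite-rich libraries and the transcript test were chosen after seeing the data. Low read counts limit genes such as Eml2 and Mark4.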
